A study of Homo sapiens with 10 samples.

Results

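The regulators of G protein signaling (RGS) described here were RGS2, RGS3, RGS4, RGS5, RGS7, RGS10, RGS12, RGS16, RGS17 and RGS20. They were found by their symbols in the annotation of the array, taking for each gene the transcript cluster with the highest mean over the 10 arrays. Each of the 10 genes had exactly 1 cluster of its own among the 28869 of the table, so that the level decided nothing in practice. The genes themselves were chosen with earlier results of these data known, and how many of them were called is a description and not independent evidence. The 4 RGS subfamilies hold 20 genes on this array, and the other 10 are given beside them.

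RNA of 9 lines and of the parental cells was hybridised to Affymetrix Human Gene 1.0 ST arrays, 1 array per line. All derive from BEAS-2B, a long established human cell line of bronchial epithelium. The 3 Cr_small and the 3 Cr_large lines are chromium transformed lines from small and large soft agar colonies. Their cells had been exposed to 0.5 μM potassium chromate for 30 days before 3 weeks in agar. The 3 control lines also came from soft agar colonies after 3 weeks, which arose spontaneously from cells that had not been given chromate. The parental cells are the population all lines started from. The treatment text of the labels gives the chromate exposure for every array, so the groups rest on the titles, on the cell type labels and on the study's methods. Each line is the progeny of 1 colony, and no repeat of the exposure is described, so the tests measure the spread between lines. The parental cells have 1 array and therefore no error.

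A receptor of the G protein coupled kind acts as an exchange factor that loads the alpha subunit of a heterotrimeric G protein with GTP. RGS proteins bind the loaded alpha subunit and speed up its hydrolysis of GTP, which ends the signal of both the alpha and the beta-gamma arm. In epithelium and airway smooth muscle they are known as brakes on receptors for bradykinin, acetylcholine, thrombin and other agonists. The R4 subfamily holds small proteins that are little more than the RGS domain, the R7 subfamily needs the beta subunit encoded by GNB5 for stability, the R12 subfamily adds further domains in its large members, and the RZ subfamily is known for acting on the Gz alpha subunit.

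The sequences upstream of 3 of the genes are shown because RGS7 and RGS2 had the largest rises of the 10 genes in the Cr lines and RGS4 the largest fall. They are RefSeq windows of 250 bases that end at the base before a transcription start (GRCh38.p14), written 5′ to 3′ on the strand of the gene. RGS2 is at chr1:192808789-192809038 on the plus strand, RGS7 at chr1:241357206-241357455 on the minus strand and RGS4 at chr1:163069111-163069360 on the plus strand. RefSeq gives 1 such window for RGS2 and 4 each for RGS7 and RGS4, and for those genes the window with the most kinds of motif was printed. For RGS7, 3 of the 4 windows tied with 1 kind, the GC box, and the first of them in the table was taken. Capitals mark matches on either strand. The letters searched were TATAAA for the TATA box, CCAAT for the box of that name, GGGCGG for the GC box and TGACG for the core of the cAMP response element. No match overlaps another here.
RGS2: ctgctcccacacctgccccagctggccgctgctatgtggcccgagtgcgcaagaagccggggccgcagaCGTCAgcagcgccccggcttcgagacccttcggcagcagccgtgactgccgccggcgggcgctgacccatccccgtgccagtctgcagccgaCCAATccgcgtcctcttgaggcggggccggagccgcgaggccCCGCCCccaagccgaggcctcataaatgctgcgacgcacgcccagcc
RGS7: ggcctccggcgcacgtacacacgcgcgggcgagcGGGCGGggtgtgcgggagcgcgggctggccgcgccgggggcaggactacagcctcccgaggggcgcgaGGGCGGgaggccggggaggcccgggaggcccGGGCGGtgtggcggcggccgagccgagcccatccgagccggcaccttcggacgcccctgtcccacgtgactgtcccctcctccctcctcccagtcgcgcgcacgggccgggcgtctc
RGS4: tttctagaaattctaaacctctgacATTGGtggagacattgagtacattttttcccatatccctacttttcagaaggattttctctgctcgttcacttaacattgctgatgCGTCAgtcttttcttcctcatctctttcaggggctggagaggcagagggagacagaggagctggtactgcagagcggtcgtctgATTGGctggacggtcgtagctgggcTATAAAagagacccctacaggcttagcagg

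The windows differ in base composition. The RGS7 window held 38 CpG dinucleotides at 80.4% G and C, and the RGS2 window 28 at 72.8%, while the printed RGS4 window held 6 at 47.6%. The median over 35116 windows of the same length was 11 CpG at 58% G and C. All 4 RGS4 windows were poor in CpG, with 1 to 6, while the 4 RGS7 windows ran from 2 CpG at 43.6% G and C to 38 at 80.4%. The contrast therefore holds for the windows printed and not for every start of RGS7. The printed RGS4 window alone of the 3 had the TATA box letters, 30 to 25 bases before the start, and 10.7% of all windows have them. The other RGS4 windows did not have these letters. Because the printed window was picked for its kinds of motif, the shares over all windows are no test of it. The printed RGS4 window also held CCAAT box letters at 225 to 221 and at 55 to 51 bases before the start. The RGS2 window held them at 89 to 85 (32% of all windows). The letters of the response element core lay at 139 to 135 bases in RGS4 and at 181 to 177 bases in RGS2 (21.2% of all windows), and the GC box letters, 1 match in RGS2 and 3 in RGS7, occur in 42.6%. A match of letters is a description of the window and not a bound site.

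Of the 10 RGS genes, 5 changed between the 6 Cr lines and the 3 control lines by limma with an adjusted p under 0.05, where 11% of all clusters did. RGS2, RGS3 and RGS7 were higher (5.33% of all clusters were higher) and RGS4 and RGS12 were lower (5.72% were lower). For each of the 5, all 6 Cr lines lay beyond all 3 control lines, as they did for 16.7% of all clusters. The median size of the log2 fold change was 0.33 over the 10 genes and 0.079 over all clusters. Levels are log2 intensities, fold changes compare the mean of the Cr_small and Cr_large means with the control mean, and each is followed by the standard error (SE) of the fit. Because these are bulk samples, fewer cells with a transcript and less of it per cell cannot be told apart.

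**Figure D1:**
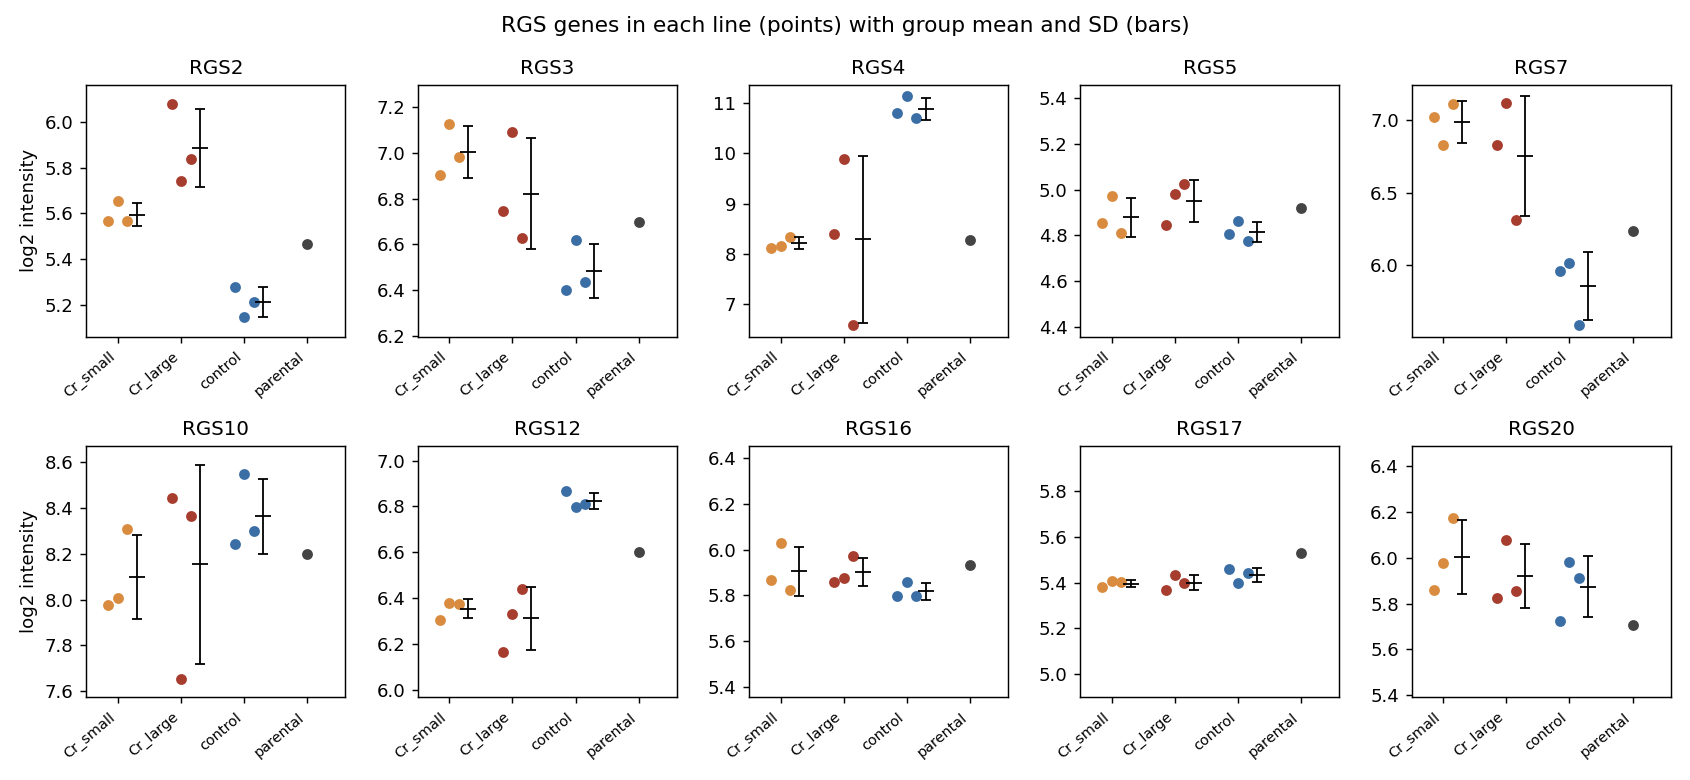
Log2 intensity (vertical axis, its own scale in each panel) of the 10 RGS genes in the Cr_small, Cr_large, control and parental arrays; each point is 1 line, and bars give the mean and SD of the 3 lines of a group. RGS4 lay between 10.70 and 11.13 in the control lines and no higher than 9.88 in any Cr line, and RGS2, RGS3 and RGS7 were above the control lines in every Cr line.

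RGS4, an R4 protein that acts on Gi and Gq alpha subunits, had the largest change of the 10. It was at 8.12, 8.17 and 8.35 in the Cr_small lines, at 8.40, 9.88 and 6.59 in the Cr_large lines, at 10.80, 11.13 and 10.70 in the control lines and at 8.28 in the parental cells. The Cr lines were thus all below the control lines and on both sides of the parental cells. The log2 fold change was -2.62 (SE 0.59, 95% interval -3.99 to -1.26, adjusted p = 0.0271 from limma), a level 6.16-fold lower in the Cr lines. Taken alone the Cr_small lines gave -2.66 (SE 0.68, adjusted p = 0.0538) and the Cr_large lines -2.59 (SE 0.68, adjusted p = 0.0635), neither past the threshold. The groups share a common spread in this fit, while the SD was 0.12 in the Cr_small, 1.65 in the Cr_large and 0.22 in the control lines. With only the Cr_small and control lines in the fit, the Cr_small change had an adjusted p of 0.000834 from limma. The Cr_large change did not pass the threshold in the like fit.

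The Cr_large lines did not share a level of RGS4. Cr_large 2, at 9.88, was the nearest of the Cr lines to the control lines, and Cr_large 3, at 6.59, was the lowest of all arrays. The 6 Cr lines spanned 3.29 log2 units, or 9.77-fold, while the control lines spanned 0.43. The SD of 1.05 over the 6 Cr lines was larger than in 99.9% of all clusters. The call for RGS4 was lost when any 1 of the control or Cr_small lines was left out, with an adjusted p from limma of 0.0516 to 0.0875 and log2 fold changes of -2.71 to -2.50. Over all 9 lines left out in turn the log2 fold change ran from -3.02 without Cr_large 2 to -2.20 without Cr_large 3. That of the Cr_large lines alone became -3.38 (adjusted p = 0.0123) without Cr_large 2 and -1.73 (adjusted p = 0.0445) without Cr_large 3, and the Cr_small comparison passed the threshold without either, with adjusted p of 0.0124 and 0.00611.

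RGS7, the R7 member with a known role at Gi and Go coupled receptors of neurons, had the largest rise. It was at 7.02, 6.83 and 7.11 in the Cr_small lines, at 6.83, 7.12 and 6.31 in the Cr_large lines, at 5.96, 6.02 and 5.59 in the control lines and at 6.24 in the parental cells. Every Cr line was above every control line and above the parental array, Cr_large 3 only by a little. The log2 fold change was 1.01 (SE 0.18, adjusted p = 0.0101 from limma), or 2.02-fold. The Cr_small lines alone gave 1.13 (SE 0.20, adjusted p = 0.0153) and the Cr_large lines alone 0.90 (SE 0.20, adjusted p = 0.0380). The call over all Cr lines held whichever line was left out. That of the Cr_large lines alone held only without Cr_large 3 and otherwise gave adjusted p from 0.0523 to 0.124, and that of the Cr_small lines was lost without control 3, Cr_small 1 or Cr_small 3 (adjusted p from 0.0517 to 0.0569).

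RGS2, an R4 protein with a preference for the Gq alpha subunit, was higher in the Cr lines. It was at 5.57, 5.65 and 5.57 in the Cr_small lines, at 6.08, 5.74 and 5.84 in the Cr_large lines, at 5.28, 5.15 and 5.21 in the control lines and at 5.47 in the parental cells. The 3 groups of lines followed each other without overlap, the Cr_large lines at the top and the control lines at the bottom, with the parental array between control and Cr_small. The log2 fold change was 0.53 (SE 0.07, adjusted p = 0.00371 from limma), with 0.67 (SE 0.08, adjusted p = 0.00371) in the Cr_large lines and 0.38 (SE 0.08, adjusted p = 0.0316) in the Cr_small lines. The difference between the Cr_large and Cr_small lines was 0.29 (95% interval 0.10 to 0.49) at an unadjusted limma p of 0.00884, and at an adjusted p of 1.00 over all clusters. The Cr_small call of RGS2 was lost when any control or Cr_small line was left out (adjusted p from 0.0656 to 0.0971). RGS2 was below the median of all values, 5.86, in the Cr_small, control and parental arrays and in 2 of the 3 Cr_large lines, and the constant that the authors' summary adds makes the folds of such dim clusters smaller: the fold of RGS2 was 1.44, and 1.77 with that constant of 16 subtracted.

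RGS3, an R4 protein whose longer forms carry further domains, rose by less. The Cr_small lines had 6.90, 7.13 and 6.98, the Cr_large lines 6.75, 7.09 and 6.63, the control lines 6.40, 6.62 and 6.44 and the parental cells 6.70. The lowest Cr line, Cr_large 3 at 6.63, was barely above the highest control line, control 2 at 6.62. The log2 fold change was 0.43 (SE 0.11, adjusted p = 0.0399 from limma), with 0.52 (SE 0.12, adjusted p = 0.0410) for the Cr_small lines and 0.34 (SE 0.12, adjusted p = 0.165) in the Cr_large lines. The call over all Cr lines was lost without any 1 of 7 lines, namely the control and Cr_small lines and Cr_large 1 (adjusted p from 0.0533 to 0.143), as was that of the Cr_small lines (0.0508 to 0.127). The cluster sums probes along the gene, so the forms of RGS3 are not told apart.

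RGS12, a large R12 protein that also carries PDZ, phosphotyrosine binding, Ras binding and GoLoco domains, was lower in the Cr lines. It was at 6.30, 6.38 and 6.37 in the Cr_small lines, at 6.17, 6.33 and 6.44 in the Cr_large lines, at 6.87, 6.80 and 6.81 in the control lines and at 6.60 in the parental cells. The parental array lay in the gap between the Cr and the control lines. The log2 fold change was -0.49 (SE 0.06, adjusted p = 0.00208 from limma), a level 1.41-fold lower, and was -0.47 (SE 0.07, adjusted p = 0.00649) for the Cr_small and -0.51 (SE 0.07, adjusted p = 0.00499) for the Cr_large lines. All 3 calls of RGS12 held whichever line was left out.

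The other 5 RGS genes did not pass the test. RGS10, a small R12 protein best known from microglia and lymphocytes, was at 7.97, 8.01 and 8.31 in the Cr_small lines, at 8.45, 7.65 and 8.36 in the Cr_large lines, at 8.24, 8.55 and 8.30 in the control lines and at 8.20 in the parental cells. Cr_large 2, the Cr line with the most RGS4, had the least RGS10. Its log2 fold change was -0.24 (95% interval -0.65 to 0.18, adjusted p = 0.493 from limma). RGS20, an RZ protein that acts on Gz, was at 5.83 to 6.18 in the 6 Cr lines, at 5.73 to 5.98 in the control lines and at 5.70 in the parental cells, with a log2 fold change of 0.088 (95% interval -0.13 to 0.30).

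RGS5, known as a marker of pericytes, and RGS16, an R4 protein that many stimuli induce, showed small differences. RGS5 lay between 4.81 and 5.02 in the Cr lines and between 4.78 and 4.86 in the control lines, with 4.92 in the parental cells, and 10% of all values in the table lay under 4.60. RGS16 was at 5.82 to 6.03 in the Cr lines, at 5.80 to 5.86 in the control lines and at 5.93 in the parental cells. Their log2 fold changes were 0.10 (95% interval -0.027 to 0.23) for RGS5 and 0.086 (95% interval -0.037 to 0.21) for RGS16. RGS17, the RZ gene with the smallest spread of the 10, was at 5.37 to 5.43 in the Cr lines, at 5.40 to 5.46 in the control lines and at 5.53 in the parental cells, and its log2 fold change was -0.036 (95% interval -0.11 to 0.039). For RGS5, RGS16, RGS17 and RGS20 the intervals reach no farther than 0.30 log2 units on the scale of the deposited values. The added constant makes these differences smaller too. With 16 subtracted the log2 fold changes were 0.22 for RGS5, 0.12 for RGS16, -0.058 for RGS17 and 0.12 for RGS20 (adjusted p from 0.272 to 0.688 from limma). The bound of 0.30 does not carry over to that scale.

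Against the control lines alone, 4 of the 10 genes passed the test in the Cr_small lines (RGS2, RGS3, RGS7 and RGS12), where 8.26% of all clusters did. In the Cr_large lines 3 did (RGS2, RGS7 and RGS12), where 7.44% of all clusters did. The comparisons share the control lines. Between the Cr_large and the Cr_small lines no RGS gene passed the test and 0% of all clusters did. At an unadjusted limma p under 0.05, 1 of the 10 genes, RGS2, differed between them, and 4.39% of all clusters did. For RGS4 the interval of this difference ran from -1.50 to 1.65 and for RGS7 from -0.71 to 0.24, so that differences of 2-fold in RGS4 were not detectable with these lines.

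**Figure D2:**
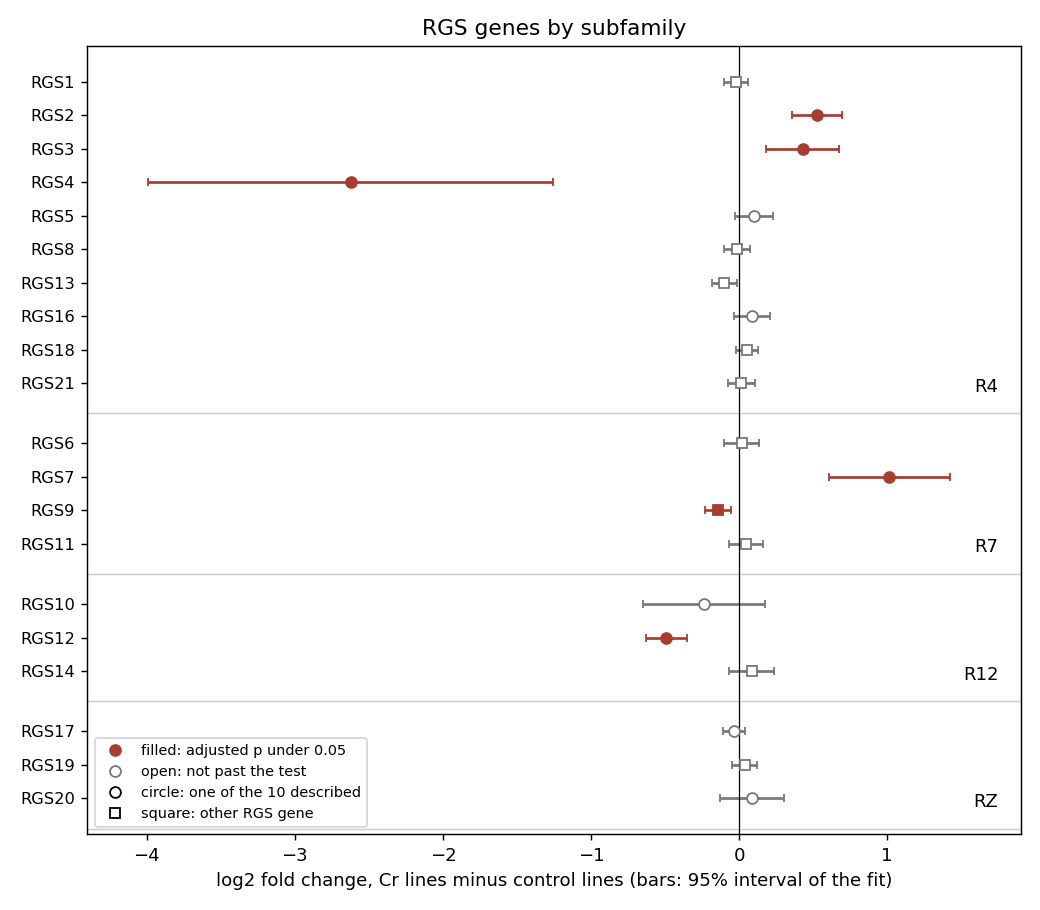
Log2 fold change of the Cr lines against the control lines (horizontal axis) with its 95% interval for the 20 RGS genes, grouped by subfamily from R4 at the top to RZ at the bottom; circles are the 10 genes described, squares the other RGS genes, and filled symbols have an adjusted p under 0.05 from limma. RGS7 at 1.01 and RGS4 at -2.62 lie farthest from 0, and the interval of RGS4 is the widest.

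Over the whole family of 20, 3 genes were higher and 3 lower (30% called, where 11% of all clusters were, 5.33% higher and 5.72% lower). In the R4 subfamily 2 of 10 genes were higher and 1 lower, in the R7 subfamily 1 of 4 was higher and 1 lower, in the R12 subfamily 1 of 3 was lower, and in the RZ subfamily 0 of 3 passed the test (also 0 at an unadjusted limma p under 0.05, which 24.4% of all clusters reached). The only call among the 10 other RGS genes was RGS9, the R7 protein of photoreceptors and striatal neurons. It was at 5.11, 5.14 and 5.16 in the Cr_small lines, at 5.27, 5.25 and 5.26 in the Cr_large lines, at 5.41, 5.28 and 5.34 in the control lines and at 5.55 in the parental cells, with a log2 fold change of -0.14 (SE 0.04, adjusted p = 0.0486 from limma). The 10 other RGS genes were thus called at 10%, near the 11% of all clusters. The median size of the change over those 10 genes was 0.042, against 0.079 over all clusters. Apart from RGS14 and RGS19, these other RGS genes were below the median of all values, 5.86, in every array. The constant added by the authors' summary makes the folds of such dim clusters smaller.

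Set against the parental cells, RGS4 was the only one of the 10 with a group mean past 2-fold: the Cr_small lines differed from the parental array by -0.067 log2 units and the Cr_large lines by 0.0086 on average, while the control lines lay 2.59 above it (6.04-fold). For the Cr_large lines that mean stands for values of 0.12, 1.60 and -1.69. Of all clusters, 1.98% had a Cr_small mean past 2-fold, 1.83% a Cr_large mean and 1.13% a control mean (0.592% higher). No test is possible against 1 array, and all 3 differences share it.

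RGS7 differed from the parental array by 0.75 in the Cr_small lines, 0.52 in the Cr_large lines and -0.38 in the control lines (log2 differences). RGS2 differed from the parental array by 0.13 in the Cr_small lines, 0.42 in the Cr_large lines and -0.25 in the control lines. For RGS12 the Cr_small lines were at -0.25, the Cr_large lines at -0.29 and the control lines at 0.22. RGS3 was at 0.31 in the Cr_small lines, 0.13 in the Cr_large lines and -0.21 in the control lines. For RGS7, RGS2, RGS12 and RGS3 the parental level thus lay between the means of the Cr groups and that of the control lines. Taken by line, it lay within the range of the Cr lines for RGS4, and also for RGS3, where Cr_large 3 was below it.

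**Figure D3:**
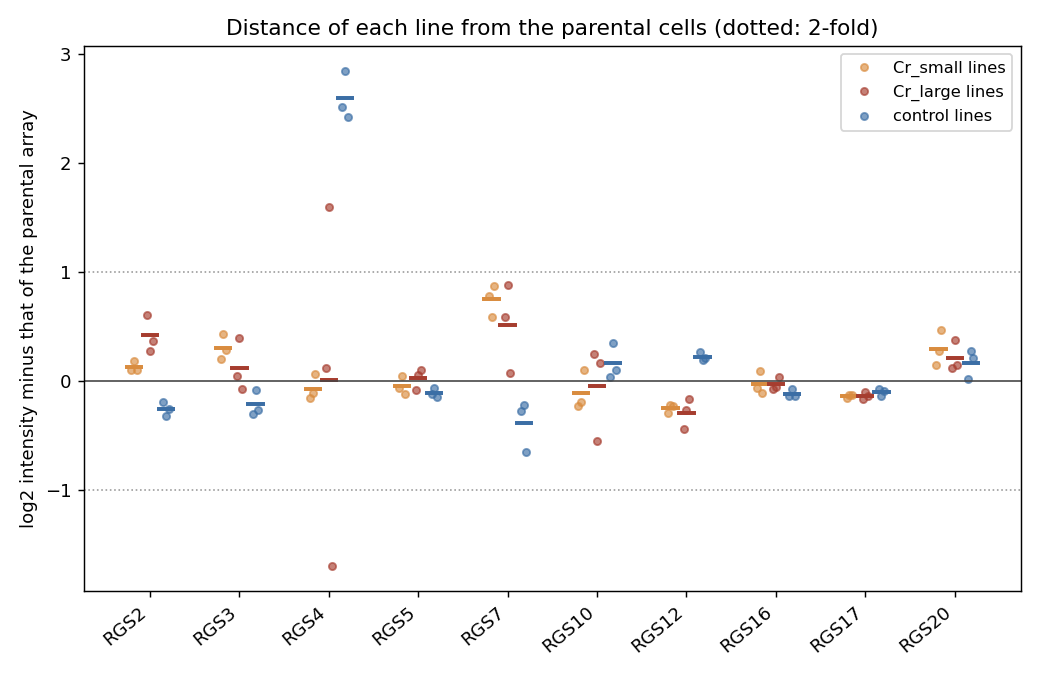
Log2 intensity of each line minus that of the parental array (vertical axis) for the 10 RGS genes, with Cr_small, Cr_large and control lines as points from left to right and group means as bars; dotted lines mark 2-fold. The control lines stand 2.59 above the parental cells for RGS4, and no other group mean passes a dotted line.

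The genes of the table with the most similar profile were taken from 19309 clusters with 1 gene symbol, by the root mean square difference over the 10 arrays after each profile was centred on its own mean. Nearest to RGS7 were DPYD, which starts the breakdown of pyrimidines, at a distance of 0.11, SELENOM, a selenoprotein of the endoplasmic reticulum, at 0.19, and CHST10, a sulfotransferase, at 0.21. DPYD had a log2 fold change of 0.91, close in size to that of RGS7, and was at 8.38 in Cr_large 3 and 9.05 in Cr_large 2. Nearest to RGS4 were DNER, a Notch ligand, at 0.63, BGN, the proteoglycan biglycan, at 0.71, and PMEPA1, an inhibitor of TGF-β signaling, at 0.75. Their log2 fold changes of -2.75, -2.49 and -2.55 were like that of RGS4, but none had as low a value in Cr_large 3 or as high a value in Cr_large 2 against its own mean. The nearest profile of RGS4 was thus less near than that of RGS7. The profiles were centred but not scaled, so genes with larger changes tend to have larger distances.

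Several of the genes stand beside other RGS genes on chromosome 1. RGS4 and RGS5 are neighbours there, and RGS5 had a log2 fold change of 0.10 against -2.62 for RGS4. RGS2 follows a row of RGS18, RGS21, RGS1 and RGS13, whose log2 fold changes ran from -0.10 to 0.05. The genes of that row were dim, between 4.51 and 4.87 over all arrays, where 10% of all values lay under 4.60. None of the 10 measured genes nearest to RGS2 passed the test. RGS16 stands next to RGS8, at -0.01, and RGS8 was below the median of all values, 5.86, in every array. Over the 5 nearest measured genes on each side of all 10 RGS genes, there were 90 different genes that were not among the 10. Of these 90, 5 were called, or 5.56%, where 11% of all clusters were: CHRM3 and DOK7 were higher and NUF2, LAMC1 and TIAM2 lower.

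Beside RGS7, at 2 places from it, was CHRM3, the muscarinic M3 receptor, which was 1.65 higher on the log2 scale (adjusted p = 0.0111 from limma). FMN2, which lies between them, had 0.54 at an adjusted p of 0.106. NUF2, a kinetochore protein at 2 places from RGS4, had a log2 fold change of -0.41 (adjusted p = 0.0407 from limma), and DOK7, an adaptor of the muscle synapse at 2 places from RGS12, had 0.22 (adjusted p = 0.0376 from limma). None of the 10 genes nearest to RGS3 passed the test, with log2 fold changes of 0.04 to 0.50.

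**Figure D4:**
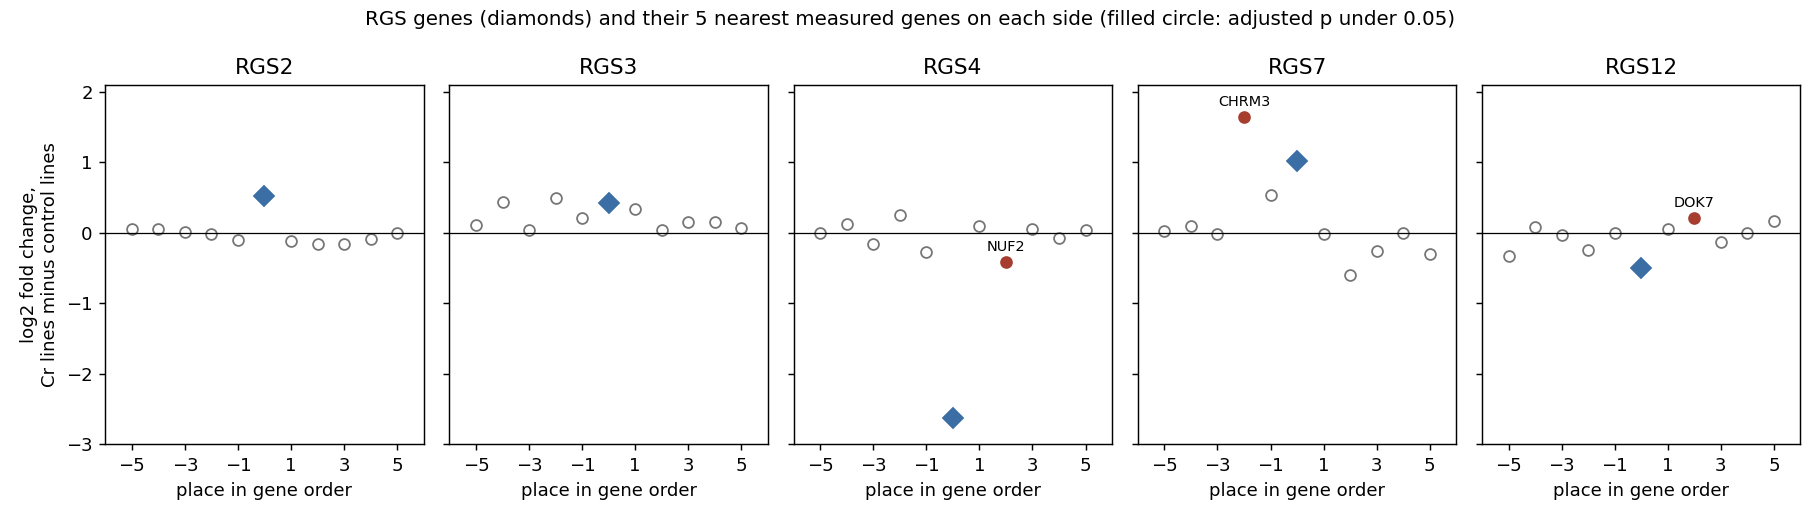
Log2 fold change of the Cr lines against the control lines (vertical axis) for RGS2, RGS3, RGS4, RGS7 and RGS12 (diamonds at the centre) and the 5 nearest measured genes on each side by their place in the gene order (horizontal axis); filled circles have an adjusted p under 0.05 from limma. The genes beside RGS4 lie between -0.41 and 0.26 while RGS4 is at -2.62, and CHRM3 at 1.65 is the only called neighbour of RGS7.

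Among the partners of the R7 proteins, GNB5, the beta subunit that RGS7 binds, was lower. It was at 7.57, 7.30 and 7.49 in the Cr_small lines, at 7.46, 7.55 and 7.60 in the Cr_large lines, at 7.82, 7.65 and 7.90 in the control lines and at 7.89 in the parental cells, with a log2 fold change of -0.30 (SE 0.08, adjusted p = 0.0430 from limma). For GNB5 the Cr_small lines alone gave -0.34 (adjusted p = 0.0551 from limma) and the Cr_large lines alone -0.26 (adjusted p = 0.136), neither past the threshold. Over all Cr lines, RGS7 and GNB5 therefore differed from the control lines in opposite directions. The 4 other partners (RGS7BP, RGS9BP, GPR158 and GPR179, which anchor R7 proteins at membranes) had changes of 0.04 to 0.07 and did not pass the test. Of the 5 partners 20% were thus called, where 11% of all clusters were.

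Of 15 measured G protein alpha subunits, 2 passed the test, or 13.3%, where 11% of all clusters did. GNAZ, the Gz subunit that RZ proteins act on, was higher (0.44, adjusted p = 0.0134 from limma) and GNA13 was lower (-0.28, adjusted p = 0.0263). Of 15 measured beta and gamma subunits other than GNB5, 0 passed the test, and 5 had an unadjusted limma p under 0.05, which 24.4% of all clusters reached. Of 7 other proteins that bind alpha subunits, 1 was higher, GPSM1, a GoLoco protein (0.32, adjusted p = 0.0421). Of 13 effectors, the adenylyl cyclases and phospholipases C beta, 1 was lower, the cyclase ADCY9 (-0.54, adjusted p = 0.0255).

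Receptors that couple to Gi or Gq, whose signals RGS proteins end, held the largest changes of the 8 lists of other genes around the RGS proteins, though smaller ones than RGS4. Of 32 measured, 3 were higher and 4 lower (21.9% called, where 11% of all clusters were). OXTR, the oxytocin receptor, was at 10.13, 9.69 and 10.00 in the Cr_small lines, at 10.05, 10.02 and 10.00 in the Cr_large lines, at 8.77, 8.24 and 6.55 in the control lines and at 9.02 in the parental cells (log2 fold change 2.13, SE 0.42, adjusted p = 0.0162 from limma). All 6 Cr lines were above every control line, and control 3 was the lowest array. CHRM3 was at 5.58 to 7.07 in the Cr lines and at 4.69 to 4.88 in the control lines, and AGTR1, the angiotensin II receptor, rose by 1.01 (adjusted p = 0.0119).

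BDKRB1, the inducible bradykinin receptor, was the receptor with the largest fall. It was at 5.19, 5.97 and 5.06 in the Cr_small lines, at 5.62, 5.19 and 5.29 in the Cr_large lines, at 7.68, 7.54 and 7.42 in the control lines and at 6.87 in the parental cells, with a log2 fold change of -2.16 (SE 0.20, adjusted p = 0.000690 from limma). The Cr and control lines stood well apart, with the parental array between them. The histamine receptor HRH1 (-0.74), the lysophosphatidic acid receptor LPAR6 (-0.68) and the adrenergic receptor ADRA1B (-0.59) were lower as well, with adjusted p from 0.000312 to 0.0129.

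**Figure D5:**
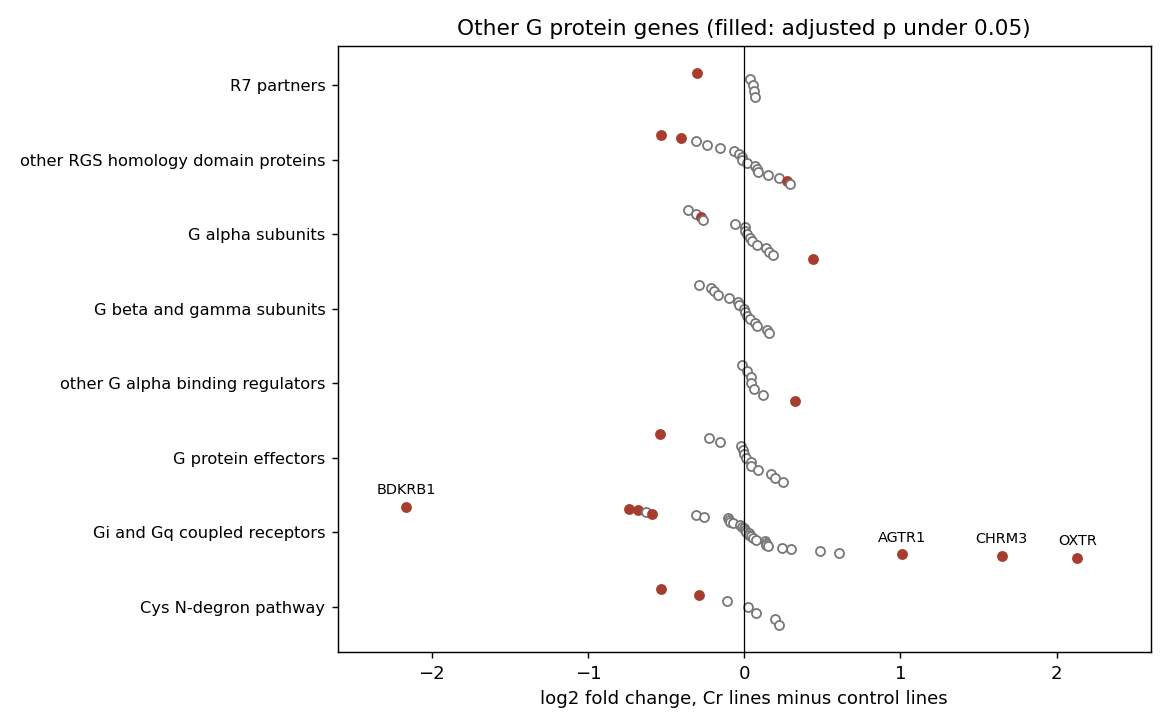
Log2 fold change of the Cr lines against the control lines (horizontal axis) for the measured genes of 8 lists around the RGS proteins (rows); each point is 1 gene, filled where the adjusted p from limma is under 0.05, with names where a called change passes 0.9. Receptors hold the points farthest from 0, from BDKRB1 at -2.16 to OXTR at 2.13.

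Proteins of other families also carry the RGS homology domain. Of 17, 17.6% passed the test, where 11% of all clusters did. ARHGEF1, an exchange factor for RhoA, was higher (0.28, adjusted p = 0.0344 from limma). ARHGEF12, its relative, was lower (-0.41, adjusted p = 0.0305), as was the sorting nexin SNX25 (-0.53, adjusted p = 0.0134). RGS4, RGS5 and RGS16 proteins are degraded through an N-terminal cysteine that is exposed, oxidised, arginylated and then recognised by ubiquitin ligases. Of the 7 genes listed for that pathway, the ligase UBR1 (-0.53, adjusted p = 0.00290) and the aminopeptidase METAP1 (-0.29, adjusted p = 0.0306) were lower and the other 5 did not pass the test. That is 28.6% called, where 11% of all clusters were. RNA levels do not measure the proteins.

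The identity of the cells was checked on marker lists. In the Cr lines against the control lines 11% of all clusters passed the test, and 24.4% had an unadjusted limma p under 0.05. The share called was 37.5% of the epithelial, 16.7% of the mesenchymal and 12.5% of the smooth muscle and pericyte markers. Of 8 epithelial markers, KRT8, KRT18 and KRT7 were bright and higher in the Cr lines (0.75, 0.82 and 0.32), while CDH1, EPCAM and KRT5 lay between 4.81 and 5.71 in every array. KRT19 had the largest difference, 1.77 (adjusted p = 0.235), and did not pass the test: it was at 5.79, 6.43 and 9.23 in the Cr_small lines, at 10.07, 8.83 and 7.26 in the Cr_large lines, at 6.07, 6.14 and 6.27 in the control lines and at 7.58 in the parental cells. The summed linear intensity of the 8 was 11282.9 to 14571.1 in the Cr_small lines, 14082.5 to 15593.2 in the Cr_large lines, 7628.56 to 9537.01 in the control lines and 9502.33 in the parental cells. It moved with the Cr groups as RGS2, RGS3 and RGS7 did, and its part in their change was not tested. Of 6 mesenchymal markers, 1 was lower, SPARC at -0.52 (adjusted p = 0.0398), and the median log2 fold change was -0.30. The log2 fold changes of the 6 ran from -0.52 to 0.64, and the marker with the rise of 0.64 did not pass the test. Their sum was 18111.8 to 19602.1 in the Cr_small lines, 17478 to 19862.4 in the Cr_large lines, 19760.7 to 27120.3 in the control lines and 18929.2 in the parental cells. It ran mostly lower in the Cr lines, as RGS4 and RGS12 did, and its part in their change was not tested. Of 5 measured leukocyte markers 0 passed the test, with 2 at an unadjusted limma p under 0.05, and their sum was 325.943 to 510.658 in the Cr lines and 338.711 to 354.434 in the control lines. The 4 endothelial markers were below the median of all values in every group (summed 127.259 to 134.694 in the Cr lines, 122.994 to 126.009 in the control lines), and of 8 markers of smooth muscle and pericytes, the cells RGS5 is known to mark, 1 passed the test, DES at 0.17.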

How the data were processed

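The 10 arrays hold 9 colony lines and the parental cells. The deposited values are linear intensities from the RMA16 summary of GeneSpring v11, run by the authors. It subtracts background, applies quantile normalization, combines the probes of each transcript cluster and adds a constant of 16. Their log2 was taken here. Clusters were named by the annotation table of the array, and 19310 carry 1 gene symbol. RGS4 is also named in 2 clusters with other genes, which were not used. All clusters were fitted with limma 3.58.1 in R 4.3.3 as 4 group means (6 residual and 1.96 prior degrees of freedom). Benjamini-Hochberg adjustment covered all 28869 clusters, with a threshold of 0.05. Differences from the parental array have no test. The genes and lists were chosen with earlier results of these data known. Genes named beyond the 10 are mainly those past the threshold, the nearest in profile and the chromosomal neighbours. Some R7 partners, cell markers and flagged RGS genes are named though they did not pass it. RefSeq windows (GRCh38.p14) matched 9 of the 10 genes. The fitting step was tested on simulated data. No array repeated another. Alternatives were other tests, filters, scalings and fits, and leaving out each line. The number of arrays limits the precision. Plots used matplotlib 3.10.9 and Python 3.11.15.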

Additional observations from a re-analysis of the deposited data

Results flagged for a closer look

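RGS7 in Cr_large 3 stood apart from the other Cr lines: it was at 6.31 while the others lay between 6.83 and 7.12, and its gap was 0.64 of the range of the 6 lines, above Dixon's critical value for 6 values. Chance alone passes this value in about 1 in 20 sets of lines, and 20 RGS genes were looked at. For RGS6 every Cr_large line was above the control mean and every Cr_small line below it. For RGS21 every Cr_large line was below the control mean and every Cr_small line above it. Both genes were below the median of all values in every array, and RGS21 was in the dim row beside RGS2. How often chance alone gives such a pattern was not worked out. The difference of Cr_large from Cr_small was 0.14 for RGS6 (unadjusted limma p of 0.0456) and -0.084 for RGS21 (unadjusted limma p of 0.103), both at an adjusted p of 1.00.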

How the results depend on the processing

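Of the 10 RGS genes, RGS2, RGS7 and RGS12 were the ones called for the Cr lines against the control lines in every alternative run. No called change turned its direction. After Benjamini-Hochberg adjustment of the methods' t-test, 3 genes were called for all Cr lines (RGS2, RGS7 and RGS12, not RGS3 and RGS4), 2 for the Cr_small lines (RGS4 and RGS12) and 0 for the Cr_large lines, and without adjustment 1 gene, RGS2, differed between the Cr_large and Cr_small lines. Leaving out each line in turn gave 3 to 5 genes for all Cr lines, 1 to 5 for the Cr_small lines, 2 to 4 for the Cr_large lines and 0 between them. RGS4 alone in the Cr_small and Cr_large lines passed the threshold in several settings, among them without the dimmest 25% of clusters (adjusted p = 0.0258 and 0.0315 from limma). Quantile normalization again and centring on the median took the Cr_small call of RGS2 away (adjusted p = 0.0607 and 0.0650), and a fit of the compared groups only took the Cr_large call of RGS7 away (adjusted p = 0.0872).

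The lines were not taken as paired, since residuals of same-numbered lines correlated from -0.145 to 0.0984 in 9 pairs. With the line number as a replicate block, 5, 4, 3 and 0 genes were called as before in the 4 comparisons. In the Cr_large lines RGS3 entered (adjusted p = 0.0487 from limma) and RGS7 left (adjusted p = 0.0541), and no other call changed. Over all clusters the methods' t-test called 6629 for all Cr lines without adjustment, 5467 and 375 for the Cr_small lines without and with adjustment, 4819 and 110 for the Cr_large lines, and 1122 between them without adjustment. Limma called 7039, 6305, 5986 and 1266 in these 4 comparisons without adjustment and 3190, 2384, 2147 and 0 with it. Without control 1 or control 3, limma called 1827 and 1729 for all Cr lines, 1336 and 1178 for the Cr_small lines and 1218 and 1087 for the Cr_large lines. It called 1456 to 1573 for the Cr_small lines without any 1 of them, and without Cr_large 2 it called 1332 for the Cr_large lines and 1 between the Cr groups. The cause of these shifts was not tested. RGS5 was not tested without the dimmest clusters, being 1 of them.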
